A study of Mus musculus with 4 samples.

Results

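The S100 genes encode small calcium-binding proteins, and 8 of them were described on arrays of B220 cells from mice labelled Mef2c knockout (KO) or C57BL/6 (wild type, WT): S100a1, S100a4, S100a6, S100a8, S100a9, S100a10, S100a11 and S100a13. They were chosen by gene name in the scanner files, are 8 of 28304 genes or names with a value on all 4 arrays, and have 1 probe and 1 spot each. The cells, of the B lineage by their label, were taken from the marrow and the spleen of naive mice without culture, and 1 Agilent 1-colour array was made for each of 4 groups: marrow KO, marrow WT, spleen KO and spleen WT. The sources used here do not give the number, sex and age of the animals, the strain background of the KO mice, the part of Mef2c that was deleted, the cells in which it was deleted or the B220 isolation method. With 1 array per group, a difference within a tissue or a genotype has no replicate check and no p-value.

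S100 proteins hold a pair of EF-hand calcium-binding loops and mostly work as dimers that bind a target when calcium rises. S100a8 and S100a9 form calprotectin, which is abundant in neutrophils and monocytes and, outside the cell, signals through receptors such as Tlr4 and the receptor for advanced glycation end products, Ager. The other members act mostly inside the cell, on annexins, non-muscle myosin and other partners, and are found in many tissues.

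All 8 genes lie on mouse chromosome 3, in the S100 cluster. On build mm9 the probes of S100a1 (minus strand), S100a13, S100a4, S100a6, S100a8 and S100a9 (minus strand) lie between 90315133 and 90496644, and those of S100a11 and S100a10 between 93330017 and 93368496. The probes of S100a6, at chr3:90418160-90418219, and S100a8, at chr3:90473778-90473837, both on the plus strand, are shown because these genes had the highest KO over WT folds of the members in the marrow. Both lie in coding sequence, at the second EF-hand. Each is 60 bases long, written 5′ to 3′ with no capitals.
S100a6 probe: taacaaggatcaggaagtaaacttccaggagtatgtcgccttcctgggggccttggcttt
S100a8 probe: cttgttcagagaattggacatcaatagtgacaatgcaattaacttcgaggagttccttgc

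Promoter windows of 250 bases before the gene's start, from RefSeq on build GRCm38.p6, were found for 7 of the 8 members, all but S100a10. S100a8 and S100a9 are shown since both had the lowest spleen over marrow values of the members, and S100a11 since it was the member under 2-fold apart between the spleen arrays with 75th percentile scaling. Windows were searched on both strands for the C/EBP core TTNNGNAA and the AP-1 core TGANTCA, which do not overlap each other here, and for the Mef2 core. Capitals mark C/EBP cores in S100a8 (chr3:90668821-90669070, plus strand) and S100a9 (chr3:90695722-90695971, minus strand) and AP-1 cores in S100a11 (chr3:93520246-93520495, plus strand).
S100a8 promoter: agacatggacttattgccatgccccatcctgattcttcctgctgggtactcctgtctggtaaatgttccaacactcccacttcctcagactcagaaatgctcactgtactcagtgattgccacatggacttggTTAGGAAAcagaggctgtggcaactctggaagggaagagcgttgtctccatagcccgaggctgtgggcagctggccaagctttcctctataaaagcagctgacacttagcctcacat
S100a9 promoter: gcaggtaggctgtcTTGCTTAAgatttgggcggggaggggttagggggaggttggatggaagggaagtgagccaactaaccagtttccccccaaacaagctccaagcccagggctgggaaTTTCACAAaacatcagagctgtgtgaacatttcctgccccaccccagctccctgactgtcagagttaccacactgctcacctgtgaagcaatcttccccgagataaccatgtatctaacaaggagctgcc
S100a11 promoter: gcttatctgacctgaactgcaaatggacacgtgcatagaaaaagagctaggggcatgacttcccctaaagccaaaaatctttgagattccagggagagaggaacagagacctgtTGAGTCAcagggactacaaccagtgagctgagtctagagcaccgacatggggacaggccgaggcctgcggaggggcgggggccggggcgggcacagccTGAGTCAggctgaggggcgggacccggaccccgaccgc
The S100a8 window held 1 C/EBP core, 117 to 110 bases before the start. The S100a9 window held 2, at 236 to 229 and at 130 to 123 bases. No C/EBP core was in the other 5 windows, while 36.8% of 32851 mouse promoter windows of this length held at least 1. The S100a11 window held 2 AP-1 cores, at 136 to 130 and at 38 to 32 bases. No other member held one, and 6.75% of all windows held at least 1 and 0.338% at least 2. A Mef2 core was in 0 of 7 members' windows and in 2.92% of all. These matches describe letters only. S100a1 and S100a13 are transcribed away from each other, and their starts leave 104 bases between them, chr3:90514331-90514434, which belong to both windows. This stretch is shown, on the plus strand, because both genes had the same order of levels over the arrays. S100a10, whose probe lies with that of S100a11 and away from this stretch, had that order too. A part of the stretch in the shared order was not tested.
S100a1 to S100a13: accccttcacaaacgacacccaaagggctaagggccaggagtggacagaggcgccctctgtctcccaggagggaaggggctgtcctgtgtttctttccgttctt

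The arrays carried 41174 gene probes, and every member was well above background on all 4 arrays, with no saturated pixel and no outlier mark. Levels are log2 of the processed signal relative to the 75th percentile of all gene spots on the same array, and differences are KO minus WT or spleen minus marrow on that scale. On spleen KO that percentile was 520, against 961 to 1008 for the rest, and 59.3% of its gene spots passed Feature Extraction's mark for well above background, against 69.1% to 72.0%. On spleen KO, 0 of 4 Y-linked genes were well above background, against 4 of 4 on the others, and Rn18s, the 18S ribosomal RNA, differed from spleen WT by -7.71. KO minus WT for Rn18s was -2.43 in the marrow, and spleen minus marrow was -3.28 on KO arrays. Mef2c was not lower on the arrays labelled KO by its brighter probe, which differed by 0.32 in the marrow and 1.37 in the spleen. A dimmer probe differed by 0.36 and -0.61. A probe outside the deleted part checks nothing, so KO below means the array labelled KO. Each tissue had a slide and a scan of its own, so slide, scan and tissue cannot be told apart. On either slide KO took position 1 and WT position 2, so array position goes with genotype and both cannot be told apart. Y-linked signal, missing by that mark on spleen KO alone, goes with genotype between the spleen arrays and with tissue between the KO arrays. It cannot be told apart from either there. All 10 B lineage markers were well above background on every array. In bulk RNA, fewer cells of a type and less RNA per cell cannot be told apart.

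With 75th percentile scaling the S100 genes stood higher on the arrays labelled KO in both tissues, except S100a11 in the spleen and S100a10 in the marrow, where KO and WT differed by less than the combined error of both signals. In the marrow 4 of 8 members were at least 2-fold higher on KO (S100a4, S100a6, S100a8 and S100a11) and 0 lower. Over 21232 measured genes, 8.35% were that much higher and 4.9% lower. Their median difference was 1.09, against -0.06 over all genes. On the spleen arrays 7 of 8 members stood at least 2-fold above WT and 0 below. Over 19811 measured genes, 19.8% stood above and 14.4% below. There the median was 1.62, against 0.27 over all genes. The spleen calls for S100a6 and S100a10 were lost with quantile normalization, at 0.86 and 0.78.

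How the spleen arrays were scaled set the sign of most of these differences. Agilent's spike-in RNAs, 8 probes well above background on all arrays, were brighter on spleen KO than on spleen WT by a median of 1.45, with a range of 0.53 to 1.69, while the gene probes were dimmer. Scaled by these spike-ins, which was tried after seeing the data, every spleen KO minus WT difference fell by 2.35 and the median over all genes was -2.08. S100a8 and S100a9 then differed by 0.84 and 1.54 and the other 6 members by -2.53 to -0.58. Relative to the median gene the members' differences are the same under both scalings. In the marrow spike-in scaling took 0.15 off each difference, and the same 4 members were at least 2-fold higher.

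**Figure D1:**
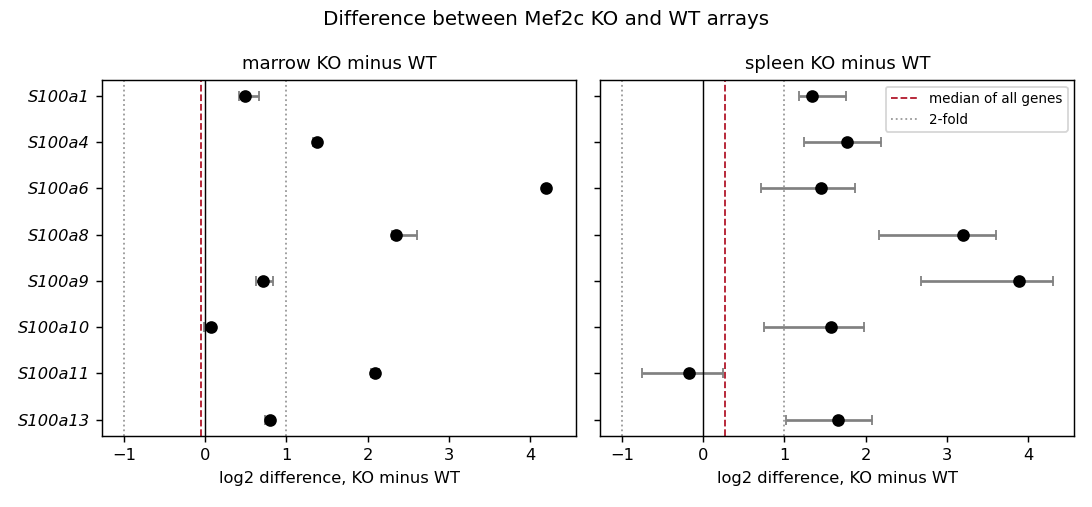
Each point is the log2 difference KO minus WT (x axis) of 1 member (y axis) in the marrow (left) and the spleen (right), from 1 array per group, and the bar spans the lowest to the highest value over 5 scalings, without the spike-in scaling. Dotted lines mark 2-fold and the dashed line the median of all genes: S100a6 lies farthest right in the marrow at 4.20 and S100a9 in the spleen at 3.89, while S100a11 lies at 2.09 and at -0.17.

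Between tissues the members split. On WT arrays S100a8 and S100a9 were at least 2-fold lower in the spleen and S100a4 higher, so that 2 of 8 were lower and 1 higher, where 15.7% of 21446 measured genes were lower and 15.5% higher. The median of the 8 was -0.24, against -0.07 over all genes. On KO arrays S100a6, S100a8, S100a9 and S100a11 were lower in the spleen and S100a4 higher, 4 and 1 of 8, where 13.9% of 20320 genes were lower and 15.7% higher. The median was -0.45, against 0.19 over all genes. With spike-in scaling 6 members were at least 2-fold higher and 2 lower in the spleen on WT arrays, where the median gene was 1.88. S100a1, S100a10 and S100a13 turned direction there, to 1.76, 1.32 and 1.66. On KO arrays the counts were 1 higher and 4 lower, as before.

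**Figure D2:**
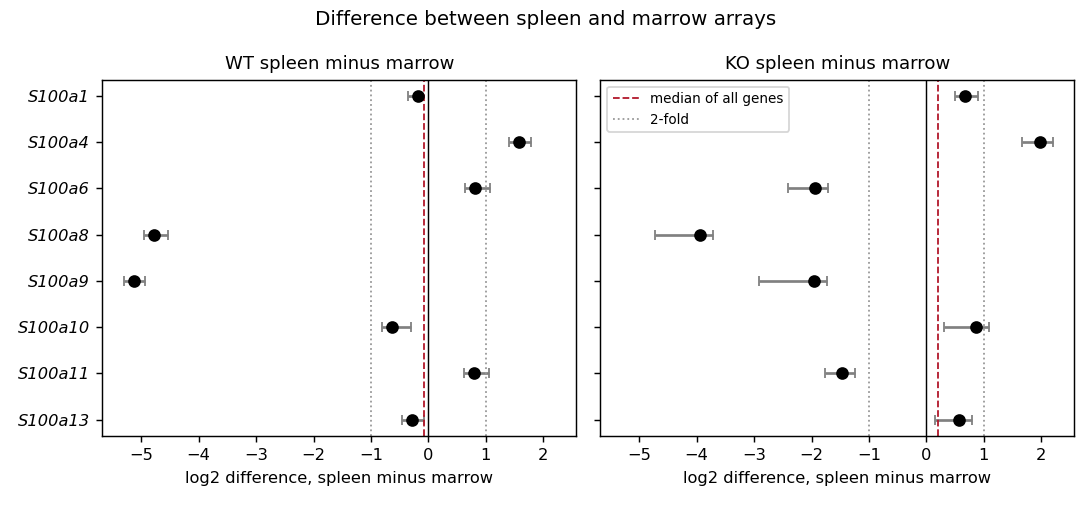
Each point is the log2 difference spleen minus marrow (x axis) of 1 member (y axis) on WT arrays (left) and KO arrays (right), with 1 array per group, and the bar spans 5 scalings, without the spike-in scaling. S100a8 and S100a9 lie far left on the WT arrays at -4.77 and -5.13, S100a4 lies right of 2-fold on both at 1.58 and 1.98, and S100a6 and S100a11 change sides.

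S100a8 and S100a9, the subunits of calprotectin, varied most among the members over the arrays. The processed signal of S100a8 was 379661 and 70690 on the KO and WT arrays of the marrow and 12790 and 2608 on those of the spleen. That of S100a9 was 452942 and 264017 in the marrow and 60454 and 7613 in the spleen. Both genes thus had the same order on their scaled levels, with marrow KO highest and spleen WT lowest, and ranges of 140-fold for S100a8 and 57.2-fold for S100a9.

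Between the marrow arrays S100a8 was 2.35 higher on KO, a fold of 5.12, and S100a9 0.71 higher, a fold of 1.64. Between the spleen arrays S100a8 was 3.19 higher on KO, or 9.15-fold, and S100a9 3.89 higher, or 14.8-fold. In rank these spleen differences were the 41st and the 18th highest of 16735 genes well above background on both arrays. Both subunits thus moved the same way in both tissues, but not by the same amount: the S100a8 difference exceeded that of S100a9 by 1.65 in the marrow, or 3.13-fold, and fell short of it by 0.70 in the spleen. In the marrow S100a9 was at 65.1% of the scanner's saturation value on KO and 38.6% on WT, and S100a8 was at 43.2% and 7.97%. A part of this brightness in the smaller S100a9 difference was not tested. Feature Extraction gave each member's signal an error of about 10%, which covers 1 array only.

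Between tissues S100a8 was 27.4-fold lower on spleen WT than on marrow WT and S100a9 35.0-fold lower, the 58th and the 41st lowest of 18579 genes. These differences, -4.77 and -5.13, were -2.82 and -3.18 with spike-in scaling. Between KO arrays S100a8 was 15.3-fold lower in the spleen, a difference of -3.94, and S100a9 3.86-fold lower, a difference of -1.95. The drop of S100a8 thus exceeded that of S100a9 by 1.99 on KO arrays, while both were within 0.36 of each other on WT arrays.

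**Figure D3:**
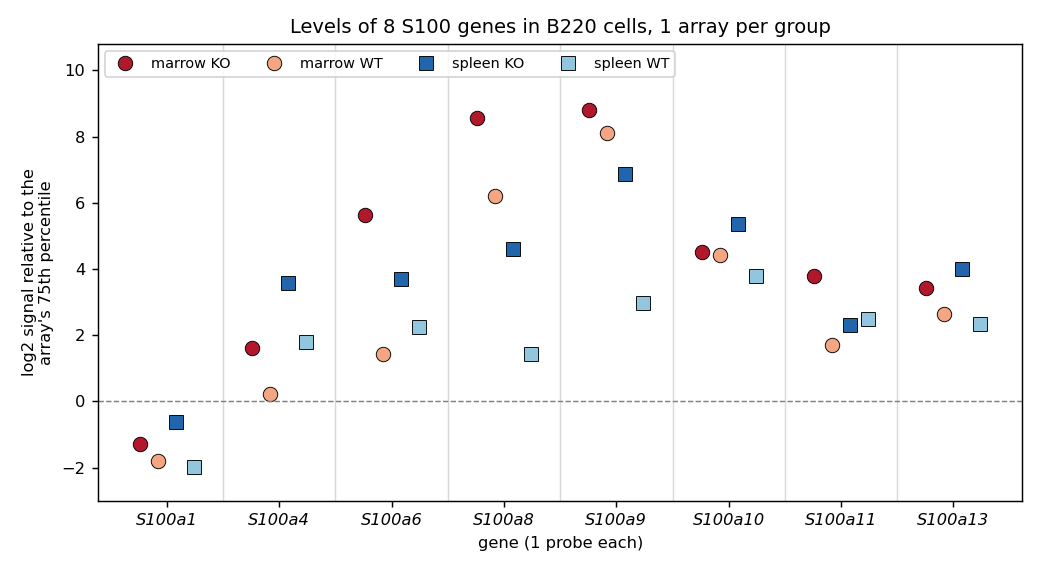
Points are log2 signals relative to the array's 75th percentile (y axis) for each member (x axis) on marrow (circles) and spleen (squares) arrays, dark for KO and light for WT, with 1 array per group. Heights are comparable within a gene only, since each gene has its own probe: S100a8 and S100a9 fall from marrow KO to spleen WT, and S100a1, S100a10 and S100a13 share 1 order, with spleen KO highest and spleen WT lowest.

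Markers of neutrophils, which carry most of the calprotectin in blood, were higher on KO throughout the marrow and in part of the list in the spleen. All 14 measured neutrophil markers were at least 2-fold higher on marrow KO than on marrow WT, with a median of 2.71, where 8.35% of all measured genes were. In the spleen 6 of 13 were at least 2-fold higher and 1 was lower, Mmp9, a granule protease, at least 2.81-fold. Over all measured genes 19.8% were higher and 14.4% lower there. Of the 6 higher markers, only Camp, Ltf and Mmp8 exceeded the 2.35 that spike-in scaling takes off. The spleen median was 1.26, or 0.76 with 4 genes at their bounds. Their summed signal over the 75th percentile was 716 on KO and 97.2 on WT in the marrow, and 5.4 and 1.1 in the spleen, the order of S100a8 and S100a9.

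Single markers did not keep step with the pair. In the marrow all 14 markers differed by more than S100a9, and 10 by more than S100a8. In the spleen 1 of 9 markers well above background on both arrays differed by more than S100a9: Camp, the antimicrobial peptide cathelicidin, at 5.31. Ltf, the granule protein lactoferrin, was 3.45 higher there, while Mpo, the myeloperoxidase of primary granules, differed by 0.75 and Csf3r, the receptor for granulocyte colony-stimulating factor, by 0.26.

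Between the KO arrays all 10 markers well above background on both fell further from marrow to spleen than S100a8 and S100a9, with differences of -8.68 to -4.49. Elane, the neutrophil elastase, was not well above background on either spleen array, and Mmp9, Fcnb and Prtn3 were not on spleen KO. On WT arrays 5 of 12 markers fell further than either subunit, among them Camp at -9.15 and Ltf at -8.03.

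Monocyte and macrophage markers, whose cells also make calprotectin, were higher in 4 of 15 and lower in 1 in the marrow, and higher in 8 and lower in 1 in the spleen. The 15 markers had a median difference of 0.18 in the marrow and 1.07 in the spleen, and all were well above background everywhere. Their summed signal was 364 on KO and 117 on WT in the marrow and 290 and 144 in the spleen. Lyz2 alone, at 284 on KO and 89.8 on WT, made up most of both marrow sums. Of the 10 B lineage markers 0 were higher and 4 lower on marrow KO, with a median of -0.76, and 3 were higher and 4 lower on spleen KO, with a median of -0.26. The highest spleen difference of these markers, 1.59, is under 2.35. Their sums, 483 and 548 in the marrow and 1228 and 744 in the spleen, had the opposite direction to that median in the spleen. The part of other cells in the S100 differences was not tested.

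**Figure D4:**
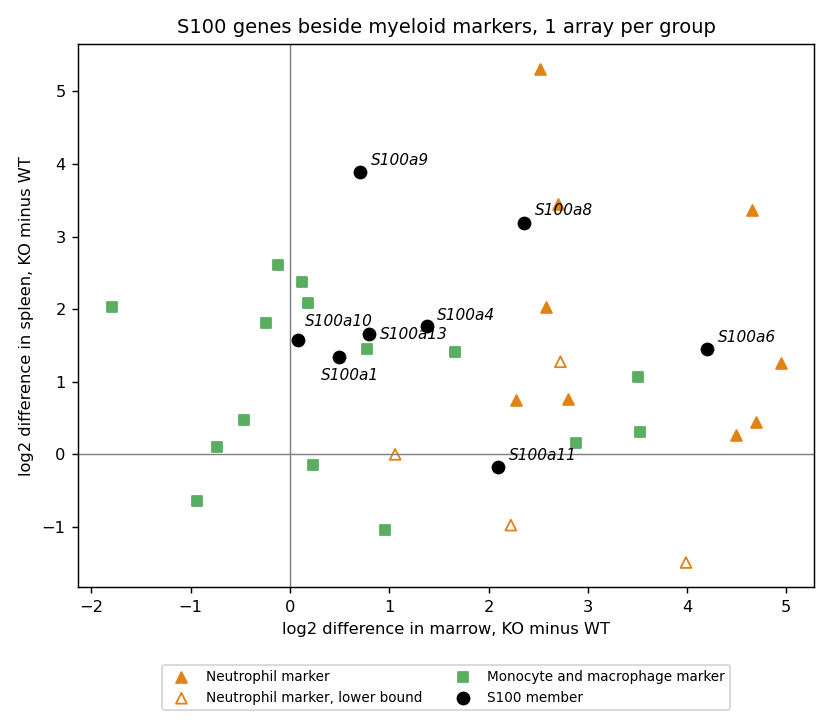
Points are genes, with the log2 difference KO minus WT in the marrow (x axis) and in the spleen (y axis), for S100 members, neutrophil markers and monocyte and macrophage markers, with 1 array per group. Open triangles are markers not well above background on 1 spleen array, drawn at the smallest difference the data allow; neutrophil markers all lie right of 0, S100a9 lies above all but 1 of them, and S100a11 lies just under 0 on the spleen axis.

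S100a6, or calcyclin, which binds annexins and the ubiquitin ligase adaptor Cacybp, had the highest KO over WT difference of the members in the marrow. Its signal was 50524 on KO and 2624 on WT in the marrow, and 6768 and 4629 in the spleen. Marrow KO thus stood highest, and marrow WT lowest after scaling. The marrow difference was 4.20, or 18.3-fold, the 37th highest of 19344 genes ranked in the marrow, and 4 of 14 neutrophil markers exceeded it.

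In the spleen S100a6 was 1.45 higher on KO, or 2.73-fold, with a range of 0.72 to 1.87 over the scalings without spike-ins. Its tissue difference had opposite signs in the genotypes, 0.80 on WT arrays and -1.94 on KO arrays. The WT value passed 2-fold with quantile normalization and cyclic loess, at 1.05 and 1.08.

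S100a11, or calgizzarin, a partner of annexin Anxa1, was at least 2-fold apart by genotype in the marrow and under 2-fold apart in the spleen with 75th percentile scaling. Signals were 13929 on KO and 3111 on WT in the marrow, and 2579 and 5432 in the spleen. Scaled to the 75th percentile, marrow KO was highest, both spleen arrays lay close together and marrow WT was lowest. In the marrow the difference was 2.09, or 4.27-fold. In the spleen it was -0.17, 1.13-fold lower on KO, which is within the combined error of both signals and turned to 0.24 with median scaling and to -2.53 with spike-in scaling. From marrow to spleen S100a11 was 0.79 higher on WT arrays and 1.48 lower on KO arrays, where the fold was 2.78.

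S100a4, or metastasin, which binds the heavy chain of non-muscle myosin Myh9 and marks many motile and memory-type cells, was at least 2-fold apart in all 4 comparisons under 75th percentile scaling, as was S100a8. Marrow signals were 3071 on KO and 1128 on WT, and spleen signals 6230 and 3400. After scaling spleen KO was highest and marrow WT lowest, 10.2-fold apart. KO stood 1.38 above WT in the marrow, or 2.59-fold, and 1.77 above it in the spleen, or 3.42-fold. Spleen stood above marrow by 1.58 on WT arrays and 1.98 on KO arrays, opposite to S100a8 and S100a9.

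S100a10, S100a13 and S100a1 shared 1 order of scaled levels: spleen KO, marrow KO, marrow WT and, lowest, spleen WT. S100a10, or p11, is the partner of annexin Anxa2, with which it binds plasminogen at the cell surface, and it does not need calcium to bind. Marrow signals were 22944 on KO and 20715 on WT, and spleen signals 21463 and 13498. The marrow arrays differed by 0.08, within the combined error of both signals, and the sign turned with quantile normalization to -0.01. In the spleen S100a10 was 1.57 higher on KO, or 2.97-fold, a difference of 0.75 with cyclic loess.

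S100a13, which takes part in the release of Fgf1 and Il1a without a signal peptide, had signals of 10910 on KO and 5978 on WT in the marrow, and 8354 and 4921 in the spleen. KO was above WT in both tissues, by 0.80 in the marrow (1.74-fold) and 1.66 in the spleen (3.17-fold). S100a1, best known as a regulator of calcium handling in heart and skeletal muscle, had signals of 411 and 278 in the marrow and 336 and 247 in the spleen. Its differences were 0.49 in the marrow (1.41-fold) and 1.35 in the spleen (2.54-fold), and both WT arrays differed by less than the combined error. Of 24 pairs of neighbours in the order of levels of the 8 genes, 3 lay within that error, and the others were farther apart. This error holds no spread between replicate arrays or between scalings, so it does not show that the orders would repeat.

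The genotype difference over both tissues, with both taken as repeats of 1 effect, was tested with limma's moderated test across 22059 genes, with tissue as a term and 1 residual degree of freedom. Of all genes 10 passed an adjusted p of 0.05, or 0.0453%, and 2495 had an unadjusted p under it. Among the members 0 passed the adjusted threshold and 5 the unadjusted one. In limma S100a8 was 2.77 higher on KO (SE 0.55, adjusted p = 0.129, higher in 2 of 2 tissues) and S100a6 2.82 higher (SE 0.68, adjusted p = 0.178, 2 of 2). S100a9 was 2.30 higher in the same limma fit (SE 0.73, adjusted p = 0.285) and S100a4 1.57 (SE 0.54, adjusted p = 0.315), both in 2 of 2 tissues.

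These calls depended on the settings. Without the background filter limma called 593 genes, 3 members among them (S100a6, S100a8 and S100a9), with normexp background correction 630 genes and 4 members (S100a4 with those 3), and with cyclic loess 0 genes and 0 members at 2035 unadjusted. The same fit called 1802 genes, 8.17%, for tissue, with S100a8 at -4.36 (SE 0.55, limma adjusted p = 0.00111) and S100a9 at -3.54 (SE 0.73, limma adjusted p = 0.0129), lower in the spleen in 2 of 2 genotypes. These 2 members were called under each of the 8 other settings of that fit, and S100a4 was higher in the spleen by 1.78 (limma adjusted p = 0.0735) and called under 3 of them. Of the 14 neutrophil markers 12 were called lower in the spleen in that fit and 0 for genotype. Whether the genotype difference itself differs between tissues could not be tested, since 4 arrays leave no residual degree of freedom for it.

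Other S100 genes on the array were dim. Of 8 found, S100a5, S100a7l2 and S100g were not well above background on any array. In the marrow 0 of 5 measured were at least 2-fold apart, with S100b, a glial S100 protein that also occurs in other cells, at 0.88 and S100a16 at 0.86, both higher on KO. In the spleen 1 of 3 was, S100b, at least 4.16-fold lower on KO. S100a16 was at least 4.45-fold lower on spleen WT than on marrow WT and at least 5.66-fold lower on spleen KO than on marrow KO.

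Partners and receptors of S100 proteins differed in both directions. On marrow KO 12 of 30 such genes stood at least 2-fold above WT and 2 below, where 8.35% of all measured genes stood above and 4.9% below. Their median was 0.27, against -0.06 over all genes. On spleen KO 8 of 28 stood above and 4 below, where 19.8% of all measured genes stood above and 14.4% below. Their median was 0.23, against 0.27 over all genes. In limma 0 of 30 passed for genotype, and 5 passed for tissue, 2 of them higher in the spleen. In the marrow Anxa2, bound by S100a10, was 3.05 higher on KO and Anxa1, bound by S100a11, 2.99 higher, against 0.72 and 1.48 in the spleen. Anxa2 was thus 8.28-fold apart between marrow arrays on which S100a10 itself was 1.06-fold apart. Anxa6 was lower on KO, at -0.70 in the marrow and -2.46 in the spleen.

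Among receptors reported for extracellular S100a8 and S100a9, Tlr4 was 1.04 higher on marrow KO and 1.44 on spleen KO. Emb, the adhesion molecule embigin, was 2.79 and 2.12 higher, and Cd36, a scavenger receptor, 1.64 and 2.21 higher. Mcam differed by 2.48 in the marrow and -0.47 in the spleen. Alcam and Nptn of the same list differed by 0.51 and 0.29 in the marrow and by -0.90 and 1.48 in the spleen. Bsg, or basigin, was lower on KO, at -0.47 and -2.24, and Ager was -0.90 in the marrow and not well above background on spleen KO. Cybb, the catalytic subunit of the phagocyte oxidase that calprotectin assists, was 1.82 and 1.43 higher. The spleen differences of Tlr4, Emb, Cd36, Nptn and Cybb are all under the 2.35 that spike-in scaling takes off, so their sign there depends on the scaling.

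Partners of other members followed no common direction. Cacybp and Sugt1, which bind S100a6, were 3.27 and 2.27 higher on spleen KO and differed by -0.11 and 0.19 in the marrow, where S100a6 itself was 18.3-fold higher. The spleen difference of Sugt1 is under the 2.35 that spike-in scaling takes off, and that of Cacybp is above it. Myh9, bound by S100a4, differed by 0.90 in the marrow and -0.21 in the spleen. Ryr1, the calcium release channel bound by S100a1, was lower on KO at -1.12 and -1.27, and Il1a differed by -0.48 and 0.25.

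The genes most like each member were found by the Euclidean distance of the 4 log2 levels, each gene centred on its own mean, over 16509 genes well above background on all arrays. For S100a8 these included Speer3 at 0.58, 2010300C02Rik at 0.67, Bst1 at 0.71 and Serpinh1 at 0.89. For S100a9 they were Bst1 at 0.96, Mylk at 1.07, 2010300C02Rik at 1.2, Serpinh1 at 1.39 and Sap30 at 1.48, so that Bst1, Serpinh1 and 2010300C02Rik stood in both lists. S100a8 and S100a9 were 1.5 from each other, farther than the 5 genes nearest to S100a9.

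S100a6 was nearest to Mboat2 at 0.49, Clec7a (the beta-glucan receptor dectin-1 of myeloid cells) at 0.57, Hacd4 at 0.63, Igsf6 at 0.64 and AK033780 at 0.65. The nearest to S100a4 were Fam149a at 0.27 and Tnfrsf18, a costimulatory receptor of T cells, at 0.29, followed by Creg1, Tpst2 and Plekha8. The nearest to S100a11 were the array's unnamed probes A_52_P260145 and NAP103812-1 and the genes Paqr7 at 0.16, Prr5l at 0.23 and Ggt5 at 0.25. For the others the nearest were Sqstm1 (S100a1), Rpl27a (S100a10) and Gstk1 (S100a13), all within 0.09. S100a1, S100a10 and S100a13 were 0.33 to 0.51 from each other. With 4 arrays these distances are a description.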

How the data were processed

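RNA of B220 cells, labelled with Cy3, was measured on 4 arrays, 1 per group, and samples were grouped by their titles. Per the file headers, the authors ran Feature Extraction 10.5.1.1, with probes placed on build mm9, and deposited its linear intensity values after background subtraction; the headers name no step that normalizes one array to another. The deposited value table of the series equalled the processed intensity at all 45018 spots of every array, with a tolerance of 0, so it gave no further alternative. All members and gene lists were chosen with earlier results of these data known.

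Of 43379 gene spots per array, 72 to 85 with an outlier mark were left out and 0 were saturated. The processed signal was taken to log2 and each array's 75th percentile over gene spots subtracted. For a gene with several probes the one brightest over the 4 arrays was used; the members have 1 each. Of 41174 probes 25097 were named through their accession in the GRCm38.p6 gene table, 6333 had a current symbol and 9744 kept the file's name, which gave 28307 names. A gene entered a comparison if either array had it well above background. If just 1 had, its fold is written as at least that size, with the dim array set to its own signal or, if larger, to the dimmest signal that passed the mark on it. Ranks use genes well above background on both arrays. Over 245 probes with repeated spots the median log2 SD within an array was 0.10 to 0.14. The number of arrays limits the precision.

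The test was limma 3.58.1 in R 4.3.3 (lmFit, eBayes, terms tissue and genotype, Benjamini-Hochberg over all genes). The fit was also run on simulated arrays, with the same genotype effect in both tissues and a chosen noise. That run does not check either assumption on the real arrays. The tissues are no independent repeats if they share animals, and the KO arrays differed in Y-linked signal. Alternatives were normexp with an offset of 50, quantile normalization, cyclic loess, median scaling, other background filters, the median over a gene's probes, a threshold of 1.5-fold and, in limma, an intensity trend with robust estimation. Named were all 8 members, the other S100 genes, 30 partners and receptors, 10 lists of cell type markers and the 5 nearest genes of each member by Euclidean distance, of which 1 is not reported here. Columns that belonged to no sample numbered 0. The protein sequences were not used here.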

Additional observations from a re-analysis of the deposited data

Results flagged for a closer look

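S100a11 had a KO minus WT difference of 2.09 in the marrow and -0.17 in the spleen, -2.27 from one to the other, where the spleen value lies within the combined error of both signals and turned to 0.24 with median scaling; the same 4 values give -2.27 for the tissue difference on KO arrays minus that on WT arrays. With 75th percentile scaling the spleen minus marrow difference had opposite signs in the genotypes for 4 more members. The KO value minus the WT value was -2.75 for S100a6, 1.49 for S100a10, 0.87 for S100a13 and 0.85 for S100a1. With 1 array per group none of these differences was tested. For S100a10, S100a13 and S100a1 each of the tissue differences was under 2-fold with 75th percentile scaling. With spike-in scaling these 3 had the same sign in both genotypes, at 1.32 on WT and 0.58 on KO arrays for S100a10, 1.66 and 0.29 for S100a13, and 1.76 and 0.39 for S100a1.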

How the results depend on the processing

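Over the planned scalings, filters and probe choices no member at least 2-fold apart changed its direction, and the counts for marrow KO against WT and spleen KO against WT stayed within 1.5 times. On WT arrays 5 members were 2-fold apart between tissues with quantile normalization, 5 with cyclic loess and 6 at 1.5-fold, with 3 of them higher in the spleen in each case. On KO arrays 2 members were higher in the spleen with median scaling and 3 at 1.5-fold. Spike-in scaling, chosen after seeing the data and not run through limma, left 3 members 2-fold apart between the spleen arrays, 1 higher and 2 lower, and put all 8 apart between the WT tissues, 6 higher and 2 lower. It turned the spleen difference of S100a1 to -1.01, of S100a4 to -0.58, of S100a6 to -0.91, of S100a10 to -0.79 and of S100a13 to -0.69, since it takes the same amount off each gene; the cause of the spike-in difference itself was not tested. Taken relative to the median gene, an alternative also chosen after seeing the data, no count moved by over 1.5 times. The genes limma called for genotype, 10 as reported, were 630 with normexp, 593 with no filter, 528 with an intensity trend and robust estimation, 449 with genes above background on all 4 arrays, 443 with median scaling, 13 with the median over probes, 2 with quantile normalization and 0 with cyclic loess, and 4, 3, 2, 3, 3, 0, 0 and 0 members were among them; the cause was not tested. For tissue 974 were called with cyclic loess, against 1802. Among all genes 2-fold apart the share higher on marrow KO moved from 63% to 75.2% with normexp and 74.8% with cyclic loess. On spleen KO it moved from 57.9% to 69.9% with normexp and 79.7% with median scaling, which shifted the median gene there from 0.27 to 0.69. The share higher in the spleen moved with median scaling from 49.6% to 38.9% on WT arrays and from 53.1% to 65.1% on KO arrays, where cyclic loess gave 43.5%. No paired analysis was possible because the labels give no replicate numbers, and leaving out 1 of 4 arrays leaves no residual degree of freedom.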

Other observations

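Most stromal and platelet markers were higher on marrow KO, as were S100a4, S100a6, S100a8 and S100a11. All 8 stromal markers were at least 2-fold higher on marrow KO, with a median of 2.01, among them Col3a1, a fibrillar collagen, at 2.46 and Lepr, a receptor of marrow stromal cells, at 2.35. Their summed signal over the 75th percentile was 37.6 on marrow KO, 11.3 on marrow WT and under 0.7 on both spleen arrays. Of 6 platelet and megakaryocyte markers 5 were higher on marrow KO, with Thbs1, thrombospondin, at 3.48 and Pf4, platelet factor, at 2.17. In the spleen 0 of 4 measured platelet markers and 1 of 6 stromal markers were at least 2-fold higher on KO with 75th percentile scaling. All 4 erythroid markers were, with a median of 1.57. Their highest spleen difference, 1.98, is under the 2.35 that spike-in scaling takes off. In the marrow 0 of 5 erythroid markers were higher and 1 was lower, Alas2, the first enzyme of haem synthesis in red cell precursors, at -1.13. In limma 0 genes of these lists were called for genotype. Counts for T cell, NK cell, dendritic, and basophil and mast cell markers follow in that order. On marrow KO 3 of 10, 1 of 7, 0 of 6 and 0 of 4 were at least 2-fold higher, and 1, 0, 1 and 0 lower. On spleen KO 2 of 11, 1 of 7, 1 of 6 and 1 of 3 were higher, and 1, 3, 2 and 0 lower. Over all measured genes 8.35% were higher and 4.9% lower in the marrow, and 19.8% and 14.4% in the spleen. The part of these cells in the S100 differences was not tested.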
